A study of Mus musculus with 60 samples.

Results

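Amphiregulin (Areg) belongs to the EGF-like ligands, and its transcript was followed here together with 5 other ligand genes (Ereg, Btc, Hbegf, Egf and Tgfa) and 3 receptor genes (Egfr, Erbb2 and Erbb3) of the same family. These 9 genes were taken by their Ensembl identifiers from a table of 27238 genes in 60 mouse libraries. Areg was chosen because its level was higher in morulas cloned from cumulus cells than in morulas that developed in vivo, so that difference is a description and carries no test. All 9 genes were in the table.

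EGF-like ligands are made as membrane-anchored precursors, and a surface protease such as ADAM17 cuts them loose to reach receptors on the same or on neighbouring cells. EGF, TGF-alpha and amphiregulin bind EGFR, while betacellulin, HB-EGF and epiregulin also bind ERBB4. ERBB2 has no known ligand of its own and ERBB3 has little kinase activity, so both signal in pairs with other family members. The Ras-MAPK cascade is among the routes by which the family signals. In the ovary, amphiregulin, betacellulin and epiregulin carry the ovulatory signal to the cumulus cells around the oocyte. In the uterus, HB-EGF is known for its part in the attachment of the blastocyst.

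The study compared single embryos made by nuclear transfer (NT) with embryos from mating, at 6 stages that began with the 1-cell embryo and ended with the blastula, with 3 libraries in each of 20 groups. In vivo embryos came from C57BL/6 females mated with DBA2 males, NTC embryos carried nuclei of cumulus cells (CCs), and NTM embryos carried nuclei of mouse embryonic fibroblasts (MEFs). All embryos and donor cells were of BDF1 background. The oocytes for NT came from superovulated adult BDF1 females, whereas those of in vivo embryos were C57BL/6. NT embryos were also activated with strontium chloride, treated with Scriptaid, a histone deacetylase inhibitor, and grown in culture. Oocyte strain, activation, Scriptaid and culture therefore cannot be told apart from NT itself. CCs were shed from oocytes after ovulation was induced, and MEFs came from midgestation fetuses and were held in low serum. Embryos were picked by their appearance. Levels are given in RPKM as deposited, which is reads per kilobase of transcript scaled to the reads mapped in the library. Fewer cells of a type and less RNA per cell cannot be told apart in these libraries.

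Reads on genes numbered 5294167 to 26281508 in the 54 embryo libraries and 31558140 to 47830132 in the 6 donor libraries. The donor libraries matched their labels. The summed RPKM of 8 cumulus markers was 573 to 1305 in CCs and 2.10 to 81.8 in MEFs, and that of 8 fibroblast markers was 4825 to 6658 in MEFs and 70.4 to 159.6 in CCs. Foxl2, Amhr2 and Fshr were at 0 in CC replicate 2, as was Egfr. For the family members, calls that involve CCs and were lost without that library are named. All other results with CCs include it. Some embryo groups differed in more than the genes below. The share of the libraries taken by mitochondrial genes was 5.68% to 8.87% in in vivo 4-cell embryos and 29.6% to 40.4% in NT 4-cell embryos. In vivo blastulas had 7730 to 7808 genes above 0 and NT blastulas 11498 to 13568. The part of either difference in the results was not tested.

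A difference was called when its adjusted p was below 0.05 (limma, Benjamini-Hochberg over all genes tested) and it reached at least 1 on the log2(RPKM + 1) scale, which understates changes of low genes. Over the 12 comparisons of NTC or NTM with in vivo embryos, 39 of the 108 pairs of gene and comparison passed the filter on low values and 1 was called, the Areg difference by which the gene had been chosen. Of all genes tested in those comparisons, 5.83% were called. With NTC and NTM pooled against in vivo embryos, 20 of 54 pairs passed and 3 were called, against 9.09% of all genes. Among the 3, Areg in morulas again rests on the libraries by which the gene was chosen. None of 20 pairs that passed was called between NTM and NTC embryos by limma, against 3.47% of all genes, and 1 of them, Hbegf at the 8-cell stage, had an unadjusted p below 0.05. In every comparison with in vivo embryos, NTC and NTM shared the same 3 in vivo libraries.

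**Figure D1:**
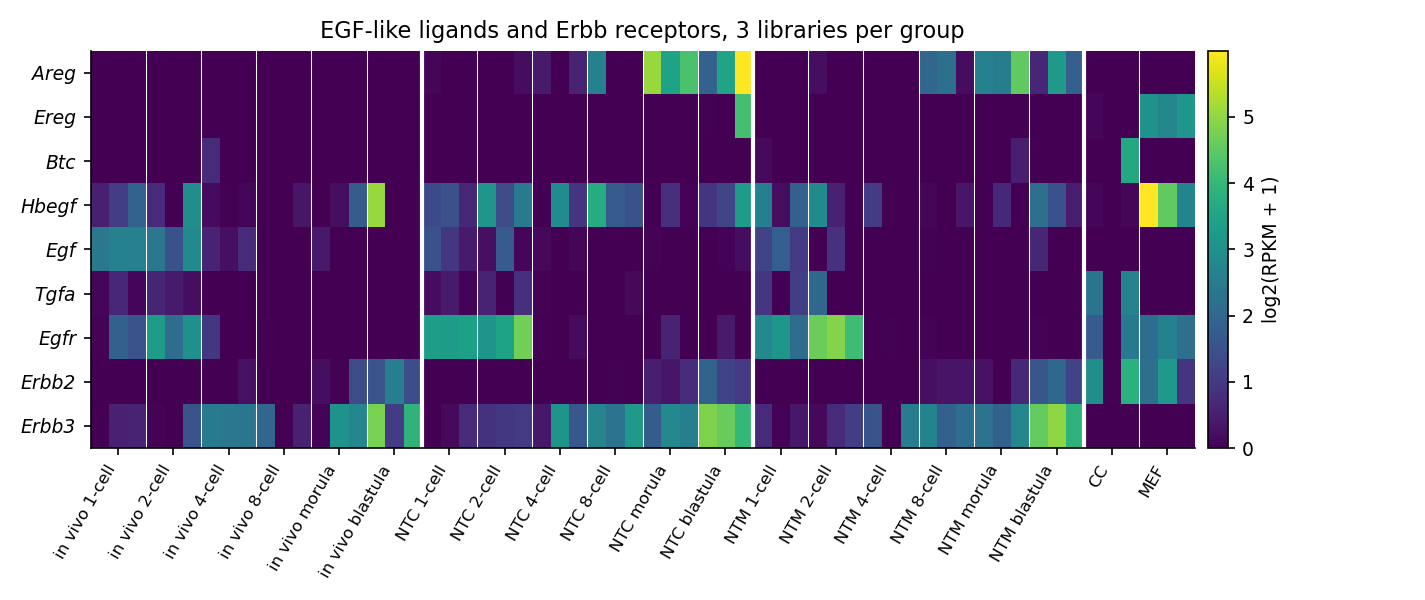
Levels of the 9 genes in the 60 libraries, as log2(RPKM + 1) by colour, with 3 neighbouring columns per group and thick lines between in vivo, NTC, NTM and donor libraries. Areg is dark in all 18 in vivo libraries and lit in the 12 NT morulas and blastulas, Egfr is lit in 1-cell and 2-cell embryos, and Erbb3 is brightest in blastulas.

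Areg was at 0 in all 18 in vivo embryos and all 6 donor libraries, and above 0 in 12 of 12 NT morulas and blastulas. The gene lies on chromosome 5 (GRCm38, chr5:91139599-91148432, plus strand). In NTC morulas its level was 32.6, 10.1 and 18.4 RPKM, which came from 733, 193 and 588 reads, and the mean was 20.4 ± 11.4 (SD, n = 3). In NTM morulas it was 5.18, 4.84 and 22.1 RPKM, with a mean of 10.7 ± 9.88 (SD, n = 3). All 6 NT morulas were above all 3 in vivo morulas, as were 3.3% of all genes, and the NTC and NTM ranges overlapped. Taking 3 reads as the smallest amount each in vivo morula could show, the NTC mean was at least 128-fold and the NTM mean at least 67.2-fold above the in vivo morulas. Of all genes, 0.0321% were called in the NTC and 0.168% in the NTM comparison. These differences rest on the libraries by which Areg was chosen.

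NT blastulas were not used in that choice. Areg was 2.68, 10.3 and 62.8 RPKM in NTC blastulas, a mean of 25.3 ± 32.8 (SD, n = 3), and 0.550, 8.44 and 2.51 RPKM in NTM blastulas, a mean of 3.83 ± 4.11 (SD, n = 3). The spread within each group was as large as its mean, and the groups overlapped. The NTC mean was at least 115-fold and the NTM mean at least 17.4-fold above the in vivo blastulas. Separately, neither difference was called. It was 3.79 ± 1.02 (log2, SE) in NTC (adjusted p = 0.0580 by limma, 9.46% of all genes called) and 1.89 ± 0.69 in NTM (adjusted p = 0.134, 0.746% of all genes called). With both NT types pooled, the difference was 2.84 ± 0.85 (log2, SE; adjusted p = 0.0418 by limma), and 18.5% of all genes were called in that comparison. The median difference of all genes there was 0.79, and 24.0% of all genes had all 6 NT blastulas above all 3 in vivo blastulas. The pooled call was lost with median-ratio scaling (difference 2.57, adjusted p = 0.0661), without the filter on low values (0.114) and without replicate 1, 2 or 3 (0.0663, 0.223 and 0.12). With in vivo blastulas at 0, Areg passed the filter in these comparisons only through the NT blastulas.

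**Figure D2:**
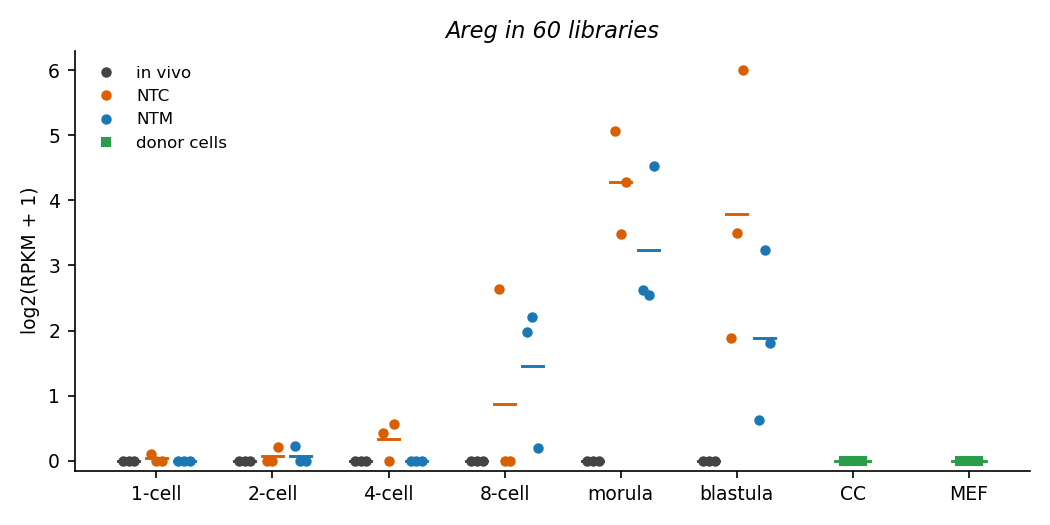
Areg in every library by stage, as log2(RPKM + 1), with 3 points per group, a line at the mean of the plotted values, and donor cells at the right. In vivo embryos and donor cells sit at 0, and the 6 NT morulas lie between 4.84 and 32.6 RPKM.

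Areg was near 0 before the 8-cell stage. It was above 0 in 5 of 18 NT embryos up to the 4-cell stage, 16 reads in all, with a highest value of 0.482 RPKM. At the 8-cell stage 1 NTC embryo stood apart, with 5.23, 0 and 0 RPKM, the first from 93 reads. NTM 8-cell embryos had 2.92, 3.64 and 0.143 RPKM, a mean of 2.24 ± 1.85 (SD, n = 3). Embryos with clear Areg signal were thus present in both NT types at the 8-cell stage, next to embryos with none or 1 read. The NTM mean was at least 9.36-fold above in vivo 8-cell embryos, and this difference was not called (1.46 on the log2 scale, adjusted p = 0.231 by limma, 2.02% of all genes called). Ordered by mean, the groups ran from NTC blastula, NTC morula, NTM morula and NTM blastula to NTM 8-cell and NTC 8-cell embryos, and each neighbouring pair in that order overlapped. The NTM and NTC blastulas differed by -1.90 on the log2 scale (adjusted p = 1.00 by limma, 0% of all genes called).

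Markers of the donor cells were low in these embryos. The sum of the 8 cumulus markers was 1.59 to 6.73 RPKM in NTC and 1.70 to 6.71 RPKM in NTM morulas and blastulas, and at most 0.11 RPKM in in vivo ones. Amhr2, at 0.285 to 6.71 RPKM in the NT embryos, made up much of it, whereas Inha, at 190.8 to 318.8 RPKM in CCs, was at 0 in all 54 embryos. In vivo 4-cell embryos had a sum of 14.2 to 19.0 RPKM, with 7 of the 8 cumulus markers at 0. Amhr2 was called higher in them than in in vivo 2-cell embryos (4.14 log2, adjusted p = 8.3e-05 by limma, 52.2% of all genes called). The sum of the 8 fibroblast markers was 0 to 2.14 RPKM in NTC and 0.0079 to 4.87 RPKM in NTM morulas and blastulas and 0 in in vivo ones. It was at 0 in replicates 2 and 3 of the NTC morulas and replicates 1 and 2 of the NTC blastulas, and Col3a1 was at 0 in all morulas and blastulas. The part of these markers in the Areg result was not tested. Both donor cell types were themselves at 0 for Areg. Against CCs, the NTC blastula mean was at least 341-fold higher (3.79 ± 1.00 log2, adjusted p = 0.0311 by limma). That call was lost without CC replicate 2, a setting chosen after seeing the data (adjusted p = 0.0611), and was made in 4 of 9 alternatives. Against MEFs, the NTM morula mean was at least 182-fold higher (3.24 ± 0.60 log2, adjusted p = 0.00352 by limma). That call was made in 8 of 8 alternatives. Areg passed the filter against CCs and MEFs only through the NT embryos, so these calls add no support beyond the values.

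Areg sits in a row of EGF-like ligand genes on chromosome 5, in the order Epgn, Ereg, Areg and Btc, and only Areg was above 0 in most NT morulas and blastulas. Epgn encodes epigen, another ligand of EGFR, and was followed because it adjoins Ereg. Of the 12 NT morulas and blastulas, Ereg was above 0 in 3, Epgn in 2 and Btc in 1. In 1 embryo 3 of the 4 genes were high together. NTC blastula replicate 3 had 62.8 RPKM of Areg, 17.7 of Ereg (747 reads) and 8.88 of Epgn (164 reads), while replicates 1 and 2 had at most 0.018 of Ereg and 0 of Epgn. That embryo also had the highest Hbegf of its group, 8.91 RPKM. Its library had the fewest reads of the group, 10215567. The summed RPKM of its trophectoderm markers was 167 against 755 and 588 in replicates 1 and 2. Oocyte markers summed to 17.7 against 0.124 and 6.28, and fibroblast markers to 2.14 against 0 and 0. Its sums of cumulus, epiblast and primitive endoderm markers lay between those of the other replicates. The part of these traits in its ligand levels was not tested. Btc was at 0 in all 9 blastulas. The nearest genes outside the row were low, but some were higher in that embryo than in replicates 1 and 2. Parm1 was 1.47 RPKM against 0.015 and 0, and Mthfd2l 0.368 RPKM against 0 and 0. Parm1 reached 2.22 RPKM among all NT morulas and blastulas, and Cxcl1 and Cxcl2 were at 0 in all of them.

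**Figure D3:**
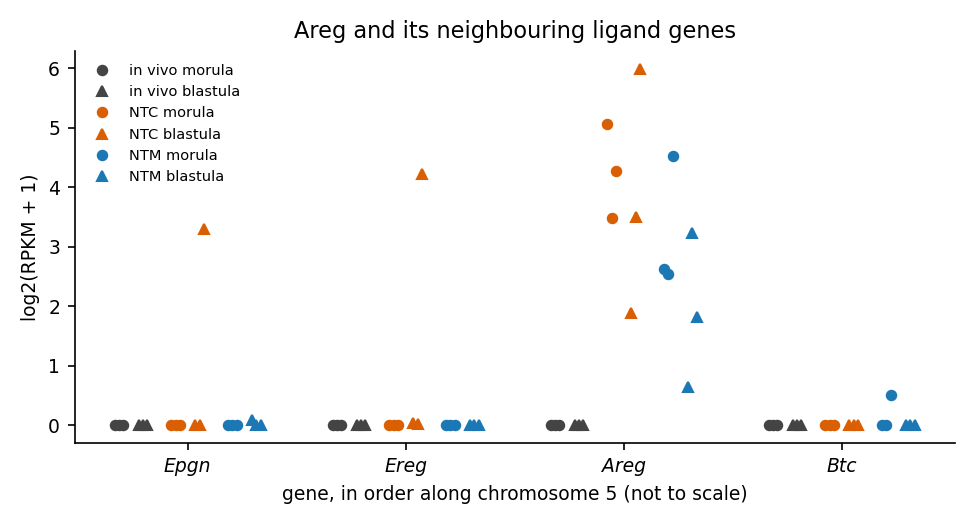
Epgn, Ereg, Areg and Btc in each morula (circle) and blastula (triangle), as log2(RPKM + 1), with genes in their order on the chromosome. Areg is above 0 in all 12 NT embryos, whereas Ereg and Epgn are high in 1 NTC blastula alone (17.7 and 8.88 RPKM).

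The start regions of Areg and Btc are shown because these neighbours differed most in how often they were above 0. Each runs from 250 bases before to 50 bases after the gene's start (RefSeq, GRCm38.p6), 5′ to 3′ on the gene's own strand, at chr5:91139349-91139648 (plus) for Areg and chr5:91402945-91403244 (minus) for Btc. Capitals mark the cAMP response element (TGACGTCA), its shorter core (TGACG) and the TATA motif (TATAAA), each searched on both strands.
Areg: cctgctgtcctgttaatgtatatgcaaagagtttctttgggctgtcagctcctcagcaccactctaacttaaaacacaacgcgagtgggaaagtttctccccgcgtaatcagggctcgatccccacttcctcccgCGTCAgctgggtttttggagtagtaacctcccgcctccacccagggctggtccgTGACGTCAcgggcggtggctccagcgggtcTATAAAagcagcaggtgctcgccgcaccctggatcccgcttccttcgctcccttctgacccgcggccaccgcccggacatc
Btc: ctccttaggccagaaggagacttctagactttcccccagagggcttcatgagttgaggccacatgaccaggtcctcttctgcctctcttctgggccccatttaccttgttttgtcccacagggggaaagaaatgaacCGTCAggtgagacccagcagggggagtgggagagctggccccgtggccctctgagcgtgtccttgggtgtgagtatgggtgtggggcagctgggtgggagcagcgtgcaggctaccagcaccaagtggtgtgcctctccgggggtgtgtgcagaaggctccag
The full cAMP response element in the Areg region began at position -61 and the TATA motif at -31, counted from the gene's start with negative positions before it. The full element is held by 1.79% and the TATA motif by 13.6% of 32851 regions of this length. Each full element also counts as 2 cores, since it reads the same on both strands. The core, found in 20.8% of all regions, was present in Areg, Btc and Erbb2, at -115 in Areg beside the full element, -113 in Btc and -171 in Erbb2. The AP-1 motif (TGANTCA) was in none of the 6 genes' regions in the table and in 7.81% of all regions. Among those 6 genes, Areg alone held the full element. Regions of Areg, Btc, Egf, Tgfa, Egfr and Erbb2 were in the table. These matches describe letters and say nothing of binding.

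The genes whose group means followed Areg most closely were Slc6a12, Gm6069, Ube2dnl1, Lgals7 and Rhox5, with Pearson r of 0.943, 0.915, 0.910, 0.904 and 0.90 over 20 group means among 13534 genes. The same 5 genes came first over the 18 embryo groups. Group means share libraries, so these values are descriptions. Slc6a12 averaged 4.16 and 3.67 RPKM in NTC morulas and blastulas, 4.94 and 5.95 in NTM, and 0.022 and 0 in in vivo embryos. Rhox5 averaged 106 and 179 RPKM in NTC morulas and blastulas, 86.7 and 129 in NTM, and 0.912 and 0.377 in in vivo ones. Unlike Areg, all 5 genes were above 0 in some in vivo embryo. Their highest in vivo values were 14.8 RPKM for Rhox5, 4.47 for Gm6069, 3.60 for Ube2dnl1, 1.70 for Lgals7 and 0.885 for Slc6a12. Like Areg, all 5 were at 0 in CCs and MEFs on average. Of the other family members, Erbb3 was closest, at rank 196 (r = 0.626).

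Ereg, the gene of epiregulin (chr5:91074622-91093646), was a MEF transcript that NTM embryos did not show. It was 7.44, 5.76 and 7.68 RPKM in MEFs, a mean of 6.96 ± 1.05 (SD, n = 3), and 0 in all 18 NTM embryos. The MEF libraries were close to each other. NTM embryos were at least 108-fold to at least 185-fold lower over the 6 stages. The difference was -2.98 on the log2 scale at each stage, with adjusted p from 1.9e-04 to 0.0033 (limma). It was called in 8 of 8 alternatives at every stage. The same 3 MEF libraries were set against 0 each time, and Ereg passed the filter only through them. The results of the 6 stages are therefore not independent and add no support beyond the values. CCs had 0.058, 0 and 0 RPKM. Outside NTC blastulas, Ereg was at 0 in every embryo.

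Btc, the gene of betacellulin (chr5:91357261-91402994), was carried by single libraries. CC replicate 3 had 11.3 RPKM, from 1614 reads, whereas the other CC libraries had 0 and 0.0070 RPKM. It was above 0 in 3 of 54 embryos, with a highest value of 0.656 RPKM in an in vivo 4-cell embryo. No statement on a group can rest on such values.

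Hbegf, the gene of HB-EGF, varied widely between embryos of a group. MEFs had 61.8, 22.1 and 5.50 RPKM, and CCs 0.068, 0.013 and 0.067. The MEF values spread widely but stayed above all CC values, as did those of 14.8% of all genes. In in vivo blastulas a single library held all the signal, with 32.7, 0 and 0 RPKM, while NTC blastulas had 0.894, 1.37 and 8.91 and NTM blastulas 3.64, 1.87 and 0.387. All 6 NT blastulas were above 0, and the highest of the 9 was in vivo. At the 8-cell stage NTC embryos had 12.1, 2.29 and 1.83 RPKM, in vivo embryos 0, 0 and 0.290, and NTM embryos 0.082, 0 and 0.293. NTC embryos were above the other groups there without overlap, as were 23.4% of all genes against in vivo and 15.5% against NTM embryos. Their difference from in vivo embryos was 2.19 ± 0.73 (log2, SE; adjusted p = 0.142 by limma, 1.46% of all genes called). The NTM difference from NTC was -2.15 ± 0.68 (adjusted p = 0.249, 0.0507% of all genes called). In 1-cell to 4-cell embryos Hbegf was above 0 in 22 of 27 libraries, with a median of 0.904 RPKM and a highest value of 7.78 in an NTC 2-cell embryo.

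Egf, the gene of epidermal growth factor (chr3:129677565-129755316), was an early transcript and was lower in NT than in in vivo 1-cell embryos. In vivo 1-cell embryos had 4.32, 5.18 and 5.12 RPKM, a mean of 4.87 ± 0.48 (SD, n = 3). NTC 1-cell embryos had 1.83, 0.952 and 0.354 RPKM, a mean of 1.05 ± 0.74, and NTM 1-cell embryos 1.34, 2.49 and 1.02, a mean of 1.62 ± 0.77 (SD, n = 3). All 6 NT embryos were below all 3 in vivo embryos, as were 2.57% of all genes. The pooled difference was -1.39 ± 0.37 (log2, SE; adjusted p = 0.0669 by limma), just short of a call, where 3.82% of all genes were called. With median-ratio scaling it was called (adjusted p = 0.0410). At the 2-cell stage in vivo embryos had 4.23, 1.87 and 6.19 RPKM, NTC embryos 0.195, 2.28 and 0.050, and NTM embryos 0, 0.799 and 0.014. The groups overlapped through 1 NTC embryo, and the pooled difference was -1.77 ± 0.61 (adjusted p = 0.302 by limma, 0.338% of all genes called). In vivo embryos lost Egf from the 2-cell to the 4-cell stage (-1.74 ± 0.45 log2, adjusted p = 0.0138 by limma). It was 0.479, 0.179 and 0.652 RPKM in in vivo 4-cell embryos, and passed the filter for this step only through the 2-cell embryos. Afterwards it stayed at or below 0.563 RPKM in 27 8-cell embryos, morulas and blastulas and was above 0 in 9 of them. CCs had at most 0.0028 RPKM and MEFs 0.

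Tgfa, the gene of TGF-alpha (chr6:86195223-86275719), was low and uneven in early embryos. It was above 0 in 14 of 18 1-cell and 2-cell embryos, with a median of 0.251 RPKM and a highest value of 2.92 in an NTM 2-cell embryo. From the 4-cell stage on it was above 0 in 3 of 36 embryos, and it was at 0 in all 9 blastulas. CCs had 3.96, 0.0049 and 5.42 RPKM and MEFs at most 0.0083. CC replicate 2 was thus low for Tgfa as for Egfr and Erbb2, and the difference between CCs and MEFs was not called (1.66 log2, adjusted p = 0.340 by limma).

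Egfr, the receptor that binds amphiregulin (chr11:16752203-16918158), was high in 1-cell and 2-cell embryos and near 0 at the stages at which Areg was high. In vivo 1-cell embryos had 0.042, 2.66 and 1.88 RPKM, a mean of 1.53 ± 1.35 (SD, n = 3). NTC 1-cell embryos had 9.08, 8.94 and 9.64 RPKM, a mean of 9.22 ± 0.37, and NTM 1-cell embryos 6.07, 7.90 and 3.4, a mean of 5.79 ± 2.26 (SD, n = 3). All 6 NT embryos were above all 3 in vivo embryos, as were 7.5% of all genes. The NTC difference was 2.2 ± 0.56 (log2, SE; adjusted p = 0.0881 by limma, 1.16% of all genes called) and the NTM difference 1.55 ± 0.65 (adjusted p = 0.316, 1.28% called). Pooled, NT 1-cell embryos were higher by 1.87 ± 0.45 (adjusted p = 0.0486), where the median of all genes was 0.24. The call was close to the threshold and was made in 2 of 8 alternatives, with adjusted p from 7.9e-04 to 0.321. The in vivo library with 0.042 RPKM was the shallowest of its group, with 10445982 reads. It had 9491 genes above 0, against 12187 and 12593 in the others. Without replicate 1 of every group, those of NTC and NTM included, the pooled difference was 1.30 (adjusted p = 0.0907 by limma). The pooled comparison was not run without that in vivo library alone. Summed RPKM of 6 oocyte markers was 2082 to 4352 in in vivo and 2020 to 4272 in NT 1-cell embryos. Single markers differed, with Zar1 lower (-2.33 log2, adjusted p = 0.0303 by limma) and Bmp15 higher (1.11, adjusted p = 0.0496) in pooled NT embryos, and the list's median was -0.87 beside 0.24 for all genes. The part of these differences in the Egfr result was not tested.

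At the 2-cell stage Egfr was 8.83, 3.4 and 7.08 RPKM in vivo. It was 7.64, 10.1 and 25.6 RPKM in NTC and 24.3, 28.4 and 16.4 in NTM embryos. The NTM embryos were all above the in vivo embryos, as were 4.96% of all genes, whereas NTC embryos overlapped both. The NTM difference from in vivo embryos was 1.74 ± 0.67 (log2, SE; adjusted p = 0.433 by limma, 0.141% of all genes called). In NTM embryos the rise from the 1-cell to the 2-cell stage was called (1.85 ± 0.48, adjusted p = 0.0460, 9.4% of all genes called), in 2 of 8 alternatives. Egfr then fell in all 3 embryo types. From the 2-cell to the 4-cell stage the log2 difference was -2.49 ± 0.48 in vivo (adjusted p = 0.0038 by limma, 52.2% of all genes called), -3.70 ± 0.55 in NTC (adjusted p = 0.0014, 36.6%) and -4.53 ± 0.60 in NTM embryos (adjusted p = 0.0014, 26.4%). These 3 calls were made in 8 of 8 alternatives each. Egfr passed the filter in these steps only through the 2-cell embryos, so the calls add no support beyond the values. The NTM step minus the in vivo step was -2.04 ± 0.69, a difference that was not called (adjusted p = 0.0871, 9.91% of all genes called).

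In 4-cell embryos Egfr was 0.947, 0.0059 and 0 RPKM in vivo and at most 0.129 RPKM in NT. It was at 0 in all 6 in vivo morulas and blastulas and above 0 in 3 of 12 NT ones, the highest of which was 0.490 RPKM in an NTC morula. In the pair of embryos with the most Areg, Egfr was at 0. NTC blastula replicate 3 had 62.8 RPKM of Areg and 0 of Egfr, and NTC morula replicate 1 had 32.6 RPKM of Areg and 0 of Egfr. The 3 NT embryos above 0 for Egfr also had Areg. NTC morula replicate 2 had 0.490 RPKM of Egfr and 10.1 of Areg. NTC blastula replicate 2 had 0.343 and 10.3, and NTM blastula replicate 1 had 0.044 and 0.550.

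**Figure D4:**
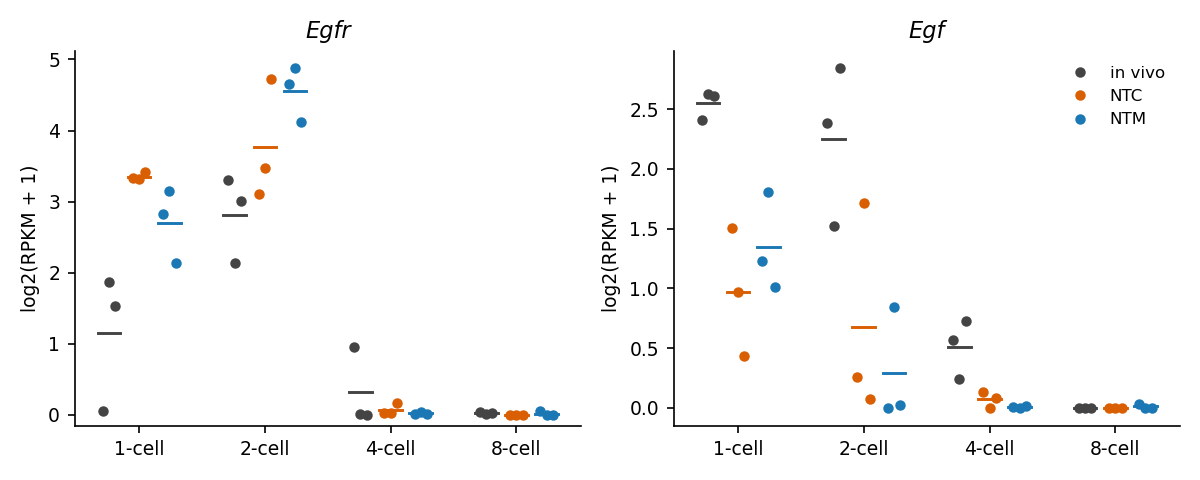
Egfr and Egf in every embryo from the 1-cell to the 8-cell stage, as log2(RPKM + 1), with a line at each group's mean of the plotted values. At the 1-cell stage the 6 NT embryos lie above the in vivo embryos for Egfr (3.4 to 9.64 against at most 2.66 RPKM) and below them for Egf (at most 2.49 against at least 4.32 RPKM), and both genes are near 0 by the 8-cell stage.

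Erbb2 and Erbb3, the genes of the partner receptors, had their highest embryo levels in blastulas. Erbb2 (chr11:98412470-98437716) was at 0 in all 18 1-cell and 2-cell embryos. In morulas it was 0.161, 0.026 and 1.61 RPKM in vivo, 0.415, 0.281 and 0.694 in NTC and 0.196, 0.010 and 0.589 in NTM. In blastulas it was 2.00, 4.96 and 1.69 RPKM in vivo, 2.73, 1.31 and 0.996 in NTC and 2.05, 3.06 and 1.33 in NTM. All 9 blastulas were above 0.99 RPKM, and the embryo types overlapped at both stages. The step from morula to blastula was 1.32 in vivo, 0.83 in NTC and 1.30 in NTM on the log2 scale, none of which was called (adjusted p = 0.380, 0.256 and 0.155 by limma). In NTM 8-cell embryos Erbb2 was 0.187, 0.253 and 0.267 RPKM, whereas in vivo 8-cell embryos were at 0 and NTC ones at 0, 0.023 and 0. These NTM values are low and the gene did not pass the filter there.

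Erbb3 (chr10:128567523-128589652) had the highest mean RPKM of the receptor genes in blastulas of all 3 embryo types. In vivo blastulas had 26.7, 1.05 and 14.0 RPKM, a mean of 13.9 ± 12.8 (SD, n = 3). NTC blastulas had 27.8, 23.2 and 14.9, a mean of 22.0 ± 6.53, and NTM blastulas 22.6, 30.7 and 13.8, a mean of 22.4 ± 8.47 (SD, n = 3). The embryo types overlapped, and the pooled difference from in vivo blastulas was 1.24 on the log2 scale (adjusted p = 0.265 by limma). In morulas Erbb3 was 0.035, 7.44 and 5.80 RPKM in vivo, 2.38, 6.07 and 4.99 in NTC and 3.70, 2.66 and 5.81 in NTM. From morula to blastula it rose by 2.09 ± 0.43 (log2, SE) in NTC (adjusted p = 0.0227, 7.16% of all genes called) and by 2.19 ± 0.50 in NTM embryos (adjusted p = 0.0341, 4.22% called), each in 3 of 8 alternatives. In vivo the step was 1.28 (adjusted p = 0.567, 0.801% called), with 1 low library at each stage. The difference between NT and in vivo in this step was called for none of the 5 genes that passed the filter in NTC and the 4 in NTM by limma, and none had an unadjusted p below 0.05 (0.236% and 0.647% of all genes called in NTC and NTM).

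From the 4-cell to the 8-cell stage the mean of Erbb3 fell in vivo, whereas in NT embryos the stages overlapped. In vivo 4-cell embryos had 4.56, 4.28 and 4.10 RPKM, after 0.045, 0 and 1.96 at the 2-cell stage, a rise of 1.87 ± 0.50 on the log2 scale (adjusted p = 0.0165 by limma), called in 6 of 8 alternatives. In vivo 8-cell embryos had 2.93, 0 and 0.458 RPKM, a fall of 1.57 ± 0.55 (adjusted p = 0.0478, 43.7% of all genes called), called in 1 of 8 alternatives. The median difference of all genes over this step was -1.05. NTC 4-cell embryos had 0.314, 7.54 and 2.09 RPKM and NTM ones 1.95, 0 and 4.72. NTC 8-cell embryos had 5.67, 3.90 and 8.25 RPKM and NTM ones 5.53, 2.60 and 3.46. The change over this step differed from that in vivo by 2.61 ± 0.95 in NTC and 2.45 ± 0.94 in NTM (adjusted p = 0.0730 and 0.0899, 19.5% and 18.7% of all genes called), so neither was called. The median of all genes for the same difference was 0.88 in both NT types. Over all 15 stage transitions, 45 of 135 pairs of gene and transition passed the filter, with 4 calls of a rise and 5 of a fall. Of all genes, 14.5% were called, 6.16% as a rise and 8.34% as a fall. Over the 10 tests of a difference between NT and in vivo transitions, none of 35 pairs was called by limma, against 6.83% of all genes, and 7 had an unadjusted p below 0.05.

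**Figure D5:**
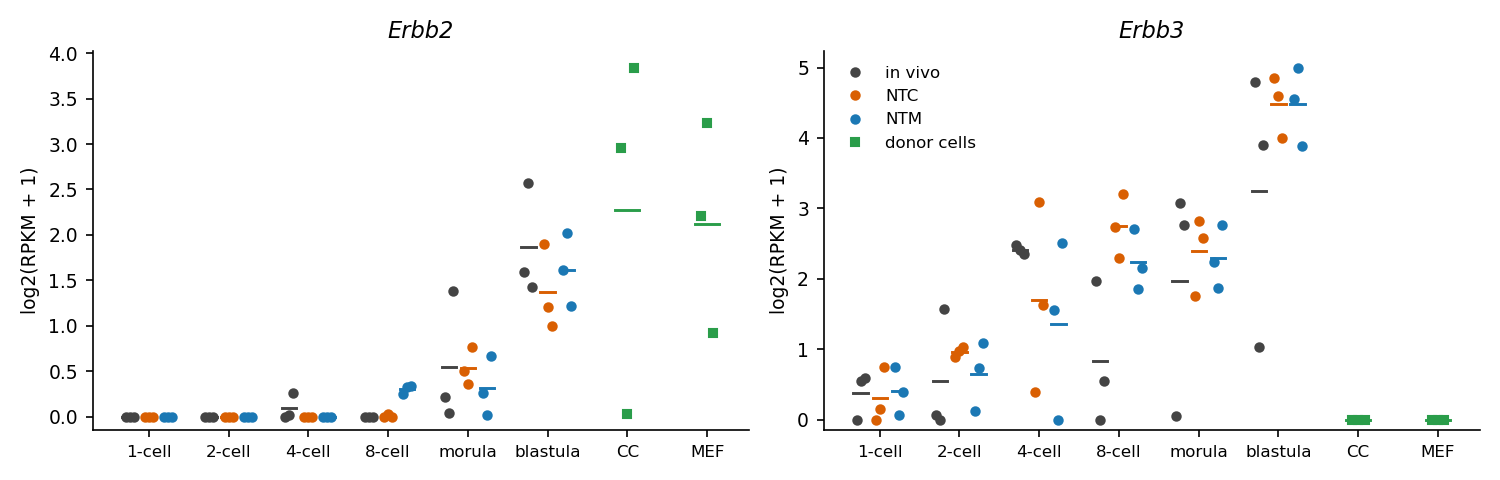
Erbb2 and Erbb3 in every library by stage, as log2(RPKM + 1), with a line at each group's mean of the plotted values and donor cells at the right. Erbb2 is at 0 up to the 2-cell stage and above 0.99 RPKM in all 9 blastulas, and Erbb3 is at 0 in donor cells and reaches 30.7 RPKM in a blastula.

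The donor cells held a different set of family members from the embryos. Erbb3 was at 0 in all CC and MEF libraries. Egfr was 2.30, 0 and 4.38 RPKM in CCs and 3.49, 5.22 and 3.64 in MEFs, and Erbb2 was 6.76, 0.018 and 13.3 in CCs and 3.6, 8.39 and 0.887 in MEFs. Between CCs and MEFs, 6 of 9 genes passed the filter and Ereg and Hbegf were called lower in CCs (-2.96 ± 0.66 and -4.33 ± 0.91 log2, adjusted p = 0.0340 and 0.0249 by limma), where 6.29% of all genes were called, 3.99% as lower. Both calls were lost without any single CC library. Ereg and Hbegf passed the filter only through MEFs, so these calls add no support beyond the values.

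Between NT embryos and their donor cells, 70 of 108 pairs passed and 34 were called, 15 higher and 19 lower in embryos. Of all genes 35.8% were called, 14.3% as higher and 21.5% as lower. From the 1-cell stage to the blastula, 50%, 37.1%, 24.4%, 21.8%, 29.6% and 24.2% of all genes were called against CCs and 55.2%, 39.5%, 28.5%, 42.3%, 41.9% and 30.8% against MEFs. Against MEFs, Ereg and Hbegf were lower in NTM embryos at all 6 stages, Hbegf by 2.85 to 4.24 on the log2 scale. Egfr was higher in NTM 2-cell embryos than in MEFs (2.22 ± 0.43, adjusted p = 0.0056) and lower from the 4-cell stage to the blastula (-2.31 to -2.34, adjusted p from 0.0026 to 0.0108). Erbb2 was lower in NTM 1-cell, 2-cell and 8-cell embryos, and Erbb3 was higher from the 8-cell stage on, at least 325-fold to at least 1880-fold. With donor cells at 0, Erbb3 passed the filter only through the embryos, and Erbb2 passed at the 1-cell, 2-cell and 8-cell stages only through MEFs. Egfr from the 4-cell stage on, and Hbegf at the 4-cell, 8-cell and morula stages, also passed only through MEFs. The same MEF libraries were used each time, so these calls are not independent and add no support beyond the values. Against CCs, Egfr was higher in NTC 1-cell and 2-cell embryos (1.97 and 2.39 log2, adjusted p = 0.0456 and 0.0474 by limma). Hbegf was higher at the same stages (1.10 and 2.25) and passed the filter there only through the embryos. Erbb3 was higher from the 8-cell stage on. Without CC replicate 2, a setting chosen after seeing the data, the call was lost for Hbegf at the 1-cell stage (adjusted p = 0.0771) and for Egfr at the 2-cell stage (adjusted p = 0.0951), while the calls over all pairs went from 34 to 45.

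A further 52 genes of the pathway, in 6 lists, were followed from other ligands to response genes. In NTC blastulas, 32 of them were tested against in vivo blastulas, 3 were higher and 2 lower, beside 9.46% of all genes called, and their median difference was 0.92 beside 0.85 for all genes. In NTM blastulas none of 35 was called by limma (8 at an unadjusted p below 0.05), beside 0.746% of all genes, with a median of 0.87 beside 0.86. In morulas none of 32 was called by limma in either NT type (6 in each at an unadjusted p below 0.05), beside 0.0321% of all genes in NTC and 0.168% in NTM, with medians of 0.22 in both beside 0.26 and -0.14 for all genes. Of the feedback inhibitors, Spry2, which dampens Ras-MAPK signalling, was 23.3, 64.8 and 102 RPKM in in vivo blastulas, 1.24, 1.39 and 2.82 in NTC and 3.05, 2.87 and 2.74 in NTM. All 6 NT blastulas lay below all 3 in vivo ones, as did 2.99% of all genes. The pooled difference was -4.08 ± 0.57 (log2, SE; adjusted p = 0.0025 by limma, 18.5% of all genes called). Spry1 was also lower in NTC blastulas (-3.28, adjusted p = 0.0496). Dusp4, a phosphatase of MAP kinases, was 16.3, 46.3 and 10.9 RPKM in NTC blastulas and 0.906, 2.05 and 0.064 in in vivo ones (3.54 ± 0.78, adjusted p = 0.0383), with 4.96, 74.4 and 19.8 in NTM. Rhbdf2, the gene of iRhom2, which guides ADAM17 to the cell surface, was at 0 in all 3 in vivo blastulas and 3.58, 2.10 and 2.59 RPKM in NTC ones (adjusted p = 0.0363). Sos1, which loads Ras with GTP, was 2.83, 5.70 and 3.12 RPKM in NTC blastulas and at most 0.170 in vivo (adjusted p = 0.0377). For Dusp4, Rhbdf2 and Sos1 all NTC blastulas lay above all in vivo ones, as did 30.6% of all genes. Rhbdf2 and Sos1 passed the filter only through the NTC blastulas, so their calls add no support beyond the values.

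In 4-cell embryos 4 of 38 tested pathway genes were higher and 5 lower in NTC than in vivo (median 0.17 beside -0.39 for all genes, 27.8% of all genes called), and 1 of 34 was higher and 4 lower in NTM (median -0.67 beside -0.69, 21.1% called). Hras was higher in both (2.65 and 3.06 log2), Braf in NTC (2.18), and Map2k1 (-2.15 and -2.59) and Spry2 (-2.93 and -2.05) were lower in both. Myc, a response gene, was 5.11, 0.244 and 0.035 RPKM in NTC 4-cell embryos and 30.4, 48.1 and 92.6 in in vivo ones (-4.72, adjusted p = 0.0016 by limma). Ier3, another response gene, was lower in NTM (-2.53, adjusted p = 0.0088). These 4-cell comparisons carry the gap in mitochondrial share given above.

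Between CCs and MEFs, 4 of 44 pathway genes were higher and 5 lower in CCs, beside 6.29% of all genes called (median -0.31 beside -0.19). Dusp4 (4.31 log2), Cblb (3.39), Rhbdf2 (3.57) and Ier3 (1.39) were higher in CCs, and Ptx3 (-6.79), Spry1 (-4.46), Dusp1 (-3.75), Myc (-2.94) and Egr1 (-1.98) were lower. Of the 4 ovulatory response genes of cumulus cells, Tnfaip6 was 104.6, 248 and 63.7 RPKM in CCs, Ptgs2 19.7, 20.1 and 69.4 and Ptx3 5.38, 0.436 and 14.3, while Has2 was at 0. MEFs held Tnfaip6 and Ptgs2 at overlapping levels and Ptx3 at 406 to 1003 RPKM. Nrg4, the neuregulin gene with the highest level in early embryos, was named after its values were seen. It was 40.7, 34.6 and 40.3 RPKM in in vivo 2-cell embryos, 30.5, 27.7 and 40.0 in NTC and 28.0, 42.6 and 38.7 in NTM. It fell from the 2-cell to the 4-cell stage in all 3 types, with differences of -3.97, -3.88 and -4.34 on the log2 scale (adjusted p from 5.9e-04 to 0.0025 by limma). Its receptor gene Erbb4 was at most 1.88 RPKM in any 1-cell or 2-cell embryo.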

How the data were processed

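The 60 libraries, 3 for each of 20 groups, measured poly(A) RNA of single embryos or donor cells. Per the labels and the paper, the authors aligned reads (Bowtie 0.12.2 and mm8 in the submitters' processing notes, TopHat in the paper) and deposited RPKM per Ensembl gene. Reads were amplified without molecular identifiers, so read counts cover counting error only. The RPKM of 20301 genes fell on whole reads (within 0.01) with GENCODE M21 lengths, which gave the reads and the floor of 3 reads per library. Coordinates are those of GENCODE M21 (GRCm38) by Ensembl ID. All columns were mapped and 27013 of 27238 IDs had a symbol.

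Differences were tested on log2(RPKM + 1) with limma 3.58.1 (R 4.3.3; lmFit, eBayes with trend) in fits of the groups compared, for genes with a mean of at least 0.5 RPKM in them. The fit was tested on simulated data. A call needed an adjusted p below 0.05 over all genes and a log2 difference of at least 1. Embryos were collected in at least 3 experiments, but labels do not tie a library to one, so p-values measure the spread between libraries. The genes and lists were chosen with earlier results of these data known. Named genes are the 9 genes, at most 4 per pathway list with the largest called difference (NT against in vivo at the 4-cell, morula or blastula stage, or CCs against MEFs), and the 5 genes most correlated with Areg. Epgn and Nrg4 were added after their values were seen. Alternatives were a pseudocount of 0.1, no filter, scaling by median ratios, a joint fit of the 20 groups, blocking on the replicate number, dropping the fold threshold and leaving out libraries. Figures were drawn with matplotlib 3.10.9.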

Additional observations from a re-analysis of the deposited data

How the results depend on the processing

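Counts of calls below are over pairs of family member and comparison in each set. For NTC or NTM against in vivo embryos, the count of 1 became 4 with a pseudocount of 0.1, 0 without the filter and 12 with 1 fit over all 20 groups, and ranged from 0 to 3 when replicates or single libraries were left out, with 0 without any library of the in vivo or NTC morulas and 3 without in vivo 1-cell replicate 1. For pooled NT against in vivo, 3 became 0 without the filter, 6 with 1 fit, and 0 without replicate 1, 2 or 3. For stage transitions, 9 became 5 without the filter and 4 to 5 without a replicate. For NT against donor cells, 34 ranged from 20 to 27 without a replicate, and was 48 with 1 fit, 37 with a pseudocount of 0.1, 30 with median-ratio scaling, 25 without the filter and 45 without CC replicate 2 (chosen after seeing the data). For CCs against MEFs, 2 became 0 without the filter and ranged from 0 to 1 without a library. For the difference of transitions, 0 became 2 with 1 fit and ranged from 0 to 1 without a replicate. Between NTM and NTC the count was 0 in every alternative run. The cause of these shifts was not tested, except that fewer libraries and more genes tested are part of the settings themselves.

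In no comparison did every pair of libraries with the same replicate number correlate above 0.1 in their deviations from the group means, so the numbers do not pair them. With a replicate block the 7 counts were 2, 2, 0, 7, 29, 1 and 0 (from 1, 3, 0, 9, 34, 2 and 0, in the order NT against in vivo, pooled, NTM against NTC, transitions, donor cells, CCs against MEFs and difference of transitions). Of 49 called results for single genes, 41 were also called with median-ratio scaling, 30 without the filter, 42 with a pseudocount of 0.1, and 24, 20 and 30 without replicates 1, 2 and 3, and none turned its direction in those settings. A gene at 0 could hold up to 3 reads, which for Areg is 0.094 to 0.466 RPKM in an embryo.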
